A study of Arabidopsis thaliana with 6 samples.

Results

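JKD (AT5G03150), SNE (AT5G48170) and AT1G62500 are 3 genes tied to the ground tissue of the Arabidopsis thaliana root, the layers of endodermis and cortex that surround the central vascular cylinder, or stele. They were chosen by locus, with earlier results of these data known. Each was matched to the probe set that the array's probe table assigns to it. This gave 3 genes of the 13355 that could be named on the array. Each had 1 probe set, 250982_at for JKD, 248741_at for SNE and 265117_at for AT1G62500. Their transcripts were compared in root tips between a quadruple mutant and Col er-2, with 3 Affymetrix ATH1 arrays per genotype. The mutant combines the allele athb8-11 of ATHB8 with cna-2 of CNA, phb-13 of PHB and phv-6 of PHV. These genes encode HD-ZIP III proteins, homeodomain transcription factors with a leucine zipper, and REV is the family member without a listed lesion. Col er-2 is the wild type of the study and carries er-2, an allele of ERECTA. Whether the mutant carries er-2 too is not given in its genotype label. Seedlings of both genotypes were untreated and 4 days past germination, and about 200 hand-cut tips of 0.5 mm were pooled for each array. The question was whether these genes depend on ATHB8, CNA, PHB and PHV.

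Ground tissue and stele are patterned through signals that cross the boundary between them. The transcription factor SHR is made in the stele and moves outward into the adjacent layer, where it acts with SCR to specify endodermis. SHR and SCR in turn switch on microRNAs that move back into the stele and degrade HD-ZIP III transcripts, so that HD-ZIP III activity is lower at the stele's edge than at its centre. JKD is a zinc-finger protein of the INDETERMINATE DOMAIN (IDD) family that works with SHR and SCR and helps to keep SHR within the endodermis. SNE, listed as SLY2 in the TAIR10.1 gene table, is an F-box protein related to SLY1, the F-box subunit that targets DELLA repressors for breakdown in gibberellin signalling, and its gene has been reported as a target of SHR. AT1G62500 is used as a marker of the cortex.

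Signals were log2 values from RMA, a method that corrects background, normalizes arrays to a common distribution and summarises the probes of a set. Array medians were 5.587 to 5.593 in the mutant and 5.558 to 5.571 in Col er-2. Every mutant median was thus above every Col er-2 median. Lower quartiles ran from 4.33 (mutant replicate 1) to 4.47 (mutant replicate 2), so the arrays were less level at low signal. Correlations between arrays over all probe sets were 0.989 to 0.996. PHV, the only mutated gene with a named probe set here, had signals of 4.64, 4.93 and 4.66 in the mutant and 5.49, 5.80 and 5.68 in Col er-2. All mutant arrays were below all Col er-2 arrays for PHV, although the difference, -0.92, did not pass limma's test over all probe sets (Benjamini-Hochberg adjusted p = 0.0639). It passed with the replicate block (adjusted p = 0.0102), array weights (0.0197), trend with robust (0.0236) and repeated quantile normalization (0.0461). In the other 10 of 14 alternatives it did not pass. Its limma adjusted p was 0.113 to 0.402 with 1 array left out, and 0.528 by the equal-variance test. Whether the probe set lies within the lesion of phv-6 is not known here. The RNA came from whole tips that hold every tissue of the root apex. A change in the share of ground tissue cells and a change in RNA per cell, in either direction, cannot be told apart in such samples.

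AT1G62500 had the clearest difference of the 3 genes. Its log2 signal was 7.85, 8.15 and 8.30 on the mutant arrays, against 7.48, 7.74 and 7.37 on the Col er-2 arrays. The lowest mutant array was above the highest Col er-2 array, so the groups did not overlap. The means were 8.10 ± 0.23 (SD, n = 3) in the mutant and 7.53 ± 0.19 in Col er-2, a difference of 0.57 (95% confidence interval 0.24 to 0.89), or a 1.48-fold higher signal (interval 1.18 to 1.85). In limma's test the unadjusted p was 0.00364. Adjusted by Benjamini-Hochberg over the 22746 probe sets tested it was 0.369, so the difference did not pass the threshold of 0.05. By an exact two-sided permutation test p was 0.1, the smallest that 3 against 3 arrays allow. In size the difference exceeded that of 99.2% of all probe sets, and of 98.5% of the 2275 within 5 percentiles of its signal level. Among the 13355 named genes it ranked 99 by size and 115 by unadjusted p. The gene was chosen with earlier results of these data known, so these p-values and ranks are not independent evidence of a difference.

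SNE had a higher mean in the mutant, but its arrays overlapped between the genotypes. Its log2 signal was 5.22, 5.48 and 5.65 on the mutant arrays, against 4.88, 5.08 and 5.45 on the Col er-2 arrays. Col er-2 replicate 3 was above mutant replicate 1, and the mutant value was the higher in 8 of the 9 possible pairs of a mutant and a Col er-2 array. The means were 5.45 ± 0.22 (SD, n = 3) in the mutant and 5.14 ± 0.29 in Col er-2. The difference of 0.31 had a confidence interval of -0.06 to 0.68, which spans a 0.957-fold to a 1.61-fold signal (limma Benjamini-Hochberg adjusted p = 0.741). The exact two-sided permutation p was 0.2. A single array moved the difference by more than 1.5 times, to 0.18 without Col er-2 replicate 1. Between arrays of the same replicate number it was 0.33, 0.39 and 0.20, but these numbers are not shown to pair the arrays. With replicate number as a block, limma's unadjusted p was 0.00912 and its Benjamini-Hochberg adjusted p 0.321.

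JKD had the lower mean in the mutant, by a small amount. Its log2 signal was 6.04, 6.22 and 6.17 on the mutant arrays, against 6.23, 6.42 and 6.21 on the Col er-2 arrays. The genotypes overlapped in 1 pair of arrays, since mutant replicate 2 was just above Col er-2 replicate 3. The means were 6.14 ± 0.09 (SD, n = 3) in the mutant and 6.29 ± 0.12 in Col er-2. The difference of -0.14 had a confidence interval of -0.36 to 0.07, so that signals between 0.780-fold and 1.05-fold of Col er-2 lay within it (limma Benjamini-Hochberg adjusted p = 0.803, exact two-sided permutation p = 0.2). Without Col er-2 replicate 2 the difference was -0.08 and without mutant replicate 1 it was -0.09.

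**Figure D1:**
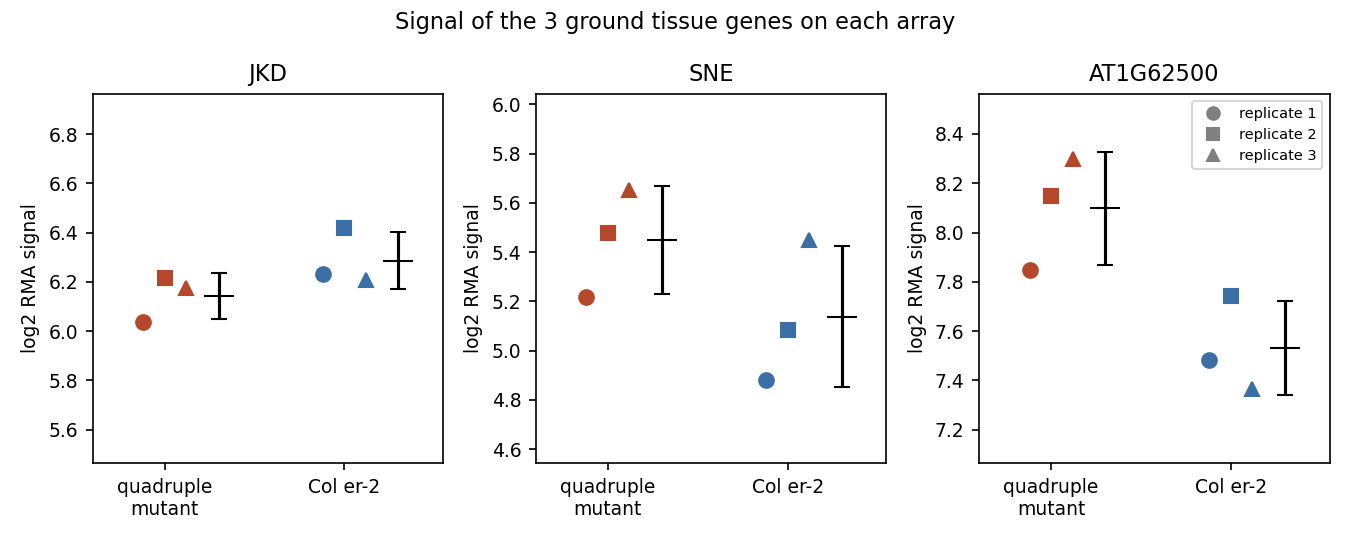
Log2 RMA signal (vertical axis, each panel spanning the same log2 range) of JKD, SNE and AT1G62500 on each array, with the quadruple mutant left of Col er-2. Points are arrays, their shape gives the replicate number, and the bars show the mean ± SD of 3 arrays. For AT1G62500 alone among the 3 genes do the genotypes not overlap, with mutant arrays at 7.85 to 8.30 and Col er-2 arrays at 7.37 to 7.74.

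By limma with Benjamini-Hochberg adjustment 0 of the 3 genes were called, and by an equal-variance test per probe set also 0. Over all probe sets the share called by limma was 0.0264%. At an unadjusted p under 0.05 there was 1 of 3, AT1G62500, where the share over all probe sets was 7.47%. The groups did not overlap in 1 of 3, again AT1G62500, where the share over all probe sets was 13.1% in either direction and 7.55% with the mutant higher. With so few genes and such a background these counts do not set the 3 genes apart from the rest of the array.

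**Figure D2:**
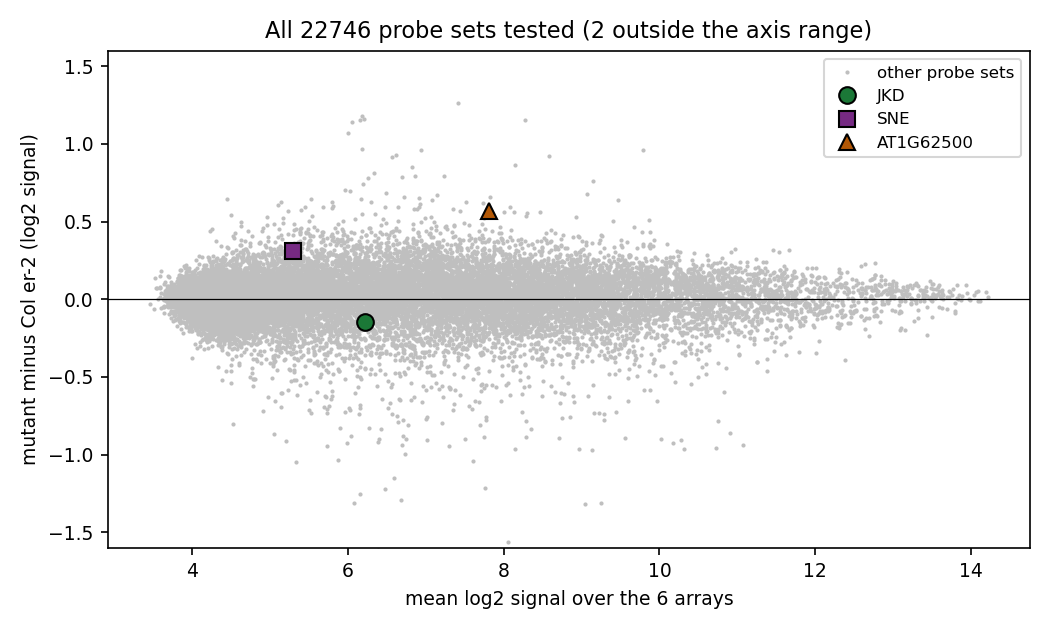
Difference in log2 signal, mutant minus Col er-2 (vertical axis), against the mean log2 signal over the 6 arrays (horizontal axis) for the 22746 probe sets tested, of which 2 lie outside the vertical range. AT1G62500, at 0.57, lies near the upper edge of the cloud at its signal level. SNE at 0.31 lies within the upper part of the cloud and JKD at -0.14 within the cloud.

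The 3 genes also differed in how much they varied among arrays of 1 genotype. JKD was the steadiest, with a pooled SD within genotypes of 0.11, and only 21.1% of the probe sets within 5 percentiles of its signal level had a smaller one. SNE and AT1G62500 were more variable than most probe sets of like level, with pooled SDs of 0.26 and 0.21, and 85.8% and 81.8% of such probe sets had a smaller one. Mutant replicate 1 was the lowest mutant array for each of the 3 genes. In Col er-2, replicate 2 was the highest and replicate 3 the lowest for both JKD and AT1G62500, while for SNE replicate 3 was the highest and replicate 1 the lowest. In rank of mean signal among all probe sets JKD lay at the 57.1 percentile, SNE at the 46.5 percentile and AT1G62500 at the 74.9 percentile. The table holds no detection calls, and the signals of different probe sets share no scale, so these ranks are not relative transcript amounts.

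Whether the 3 genes differed from each other in their response was tested on the difference of their log2 signals within each array, which a shift of a whole array does not alter. AT1G62500 minus JKD lay between 1.81 and 2.12 in the mutant and between 1.16 and 1.32 in Col er-2. All mutant arrays were above all Col er-2 arrays, and the changes of the 2 genes differed by 0.71 (exact two-sided permutation p = 0.1, the smallest possible). AT1G62500 alone already separated the genotypes, and the genes were chosen with earlier results of these data known. This separation is therefore not independent evidence of an unequal response. SNE minus JKD lay between -0.82 and -0.52 in the mutant and between -1.35 and -0.76 in Col er-2, a difference of changes of 0.45 (exact permutation p = 0.2). AT1G62500 minus SNE lay between 2.63 and 2.67 in the mutant and between 1.92 and 2.66 in Col er-2, a difference of changes of 0.26 (exact permutation p = 0.3). That value was 0.02 without Col er-2 replicate 3 and 0.39 without Col er-2 replicate 2. Adjusted by Benjamini-Hochberg over the 3 pairs, each p was 0.3. With 3 arrays per genotype this test could not reach 0.05 for any pair.

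Relatives of JKD were read from a list of 16 IDD genes, a family of zinc-finger factors several of which act with SHR and SCR. Of these 5 could be named on the array, JKD included, and the other 4 all had signals under the 35th percentile of probe sets. AT3G45260 differed by -0.16, AT1G14580 by -0.06, AT5G60470 by 0.01 and IDD16 by 0.02. By limma with Benjamini-Hochberg adjustment 0 of the 5 were called, and 0 had an unadjusted p under 0.05. The genotypes did not overlap for 1 of 5, AT1G14580, with the mutant lower, where the share over all probe sets was 13.1% in either direction. The median difference of the list was -0.06, beside 0.01 over all probe sets. The TAIR10.1 table gives a family name to JKD and IDD16 only, and the other loci were listed from general knowledge. MGP and NUC, IDD factors that work beside JKD in the ground tissue, have no named probe set here. AT3G45260, given above, is on the ground tissue list too.

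Among the 21 genes of the ground tissue list, 5 could be named, and 2 of them are not among the 3 genes already described. They are AT3G45260, given above, and GSO1, a receptor kinase that seals the Casparian strip of the endodermis, which differed by -0.03 (limma Benjamini-Hochberg adjusted p = 0.971). The means of GSO1 were 4.82 ± 0.06 in the mutant and 4.84 ± 0.08 in Col er-2 (SD, n = 3 each). In the list of 5, 0 passed the threshold and 1, AT1G62500 itself, had an unadjusted p under 0.05, where the share over all probe sets was 7.47%. Without the 3 genes the count was 0 of 2. The median difference was -0.03, beside 0.01 over all probe sets. The defining genes of the endodermis, SHR, SCR, MYB36 and the CASP genes, have no named probe set here. The ground tissue label of the 3 genes could therefore not be checked against them in these tips.

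The genes listed with SNE for gibberellin signalling all had higher mean signals in the mutant, but none passed the test. Of 13 listed genes 7 could be named, SNE included, and 7 of 7 differences were above 0, where the share over all probe sets was 52.6%. The number past limma's Benjamini-Hochberg threshold was 0 and the number at an unadjusted p under 0.05 was also 0. The median difference was 0.14, beside 0.01 over all probe sets. SPY, an O-glycosyltransferase that restrains gibberellin responses, had signals of 7.81, 7.88 and 7.94 in the mutant and 7.35, 7.55 and 7.87 in Col er-2. As for SNE, Col er-2 replicate 3 lay among the mutant arrays while the other Col er-2 arrays lay below them, and the difference was 0.29 (limma Benjamini-Hochberg adjusted p = 0.694), or 0.17 without Col er-2 replicate 1.

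The gibberellin receptor genes GID1A, GID1B and GID1C differed by 0.22, 0.14 and 0.10. Single arrays moved these values by more than 1.5 times. GID1A was at 0.07 without Col er-2 replicate 3 and 0.36 without Col er-2 replicate 1, GID1B at 0.02 without mutant replicate 1, 0.08 without Col er-2 replicate 3 and 0.22 without Col er-2 replicate 1, and GID1C at 0.07 without Col er-2 replicate 1. SLY1, the F-box relative of SNE, differed by 0.05, with 7.62 ± 0.02 (SD, n = 3) in the mutant and 7.57 ± 0.02 in Col er-2. SEC, an enzyme related to SPY that modifies DELLA proteins with a different sugar, differed by 0.07, and turned to -0.04 without mutant replicate 2 and to -0.01 with array weights. For SLY1 and GID1C the genotypes did not overlap, 2 of 7, with the mutant higher by these small amounts, where the share over all probe sets was 7.55%. Every mutant array also had a higher median over all probe sets than every Col er-2 array. With median centring SLY1 differed by 0.03 and GID1C by 0.08. Neither the overlap nor the share was recomputed after centring. The list's mean signal was 6.32 to 6.33 on the mutant arrays and 6.14 to 6.18 on the Col er-2 arrays. This mean was not recomputed after median centring either, and no share over other sets of genes was computed. No result is read from it. The list was chosen with earlier results of these data known, and no test was made of it as a whole. The DELLA genes themselves (GAI, RGA1, RGL1, RGL2 and RGL3) and SCL3 could not be matched by name, nor could any of the 17 genes listed for gibberellin metabolism.

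Of 14 genes listed as GASA genes, a family of small cysteine-rich proteins many of which respond to gibberellin, 6 could be placed on the array by locus. Their differences ran from -0.13 for AT2G14900 to 0.16 for AT1G22690, with -0.10 for AT2G18420, -0.10 for AT2G30810, -0.03 for AT2G39540 and 0.06 for AT5G59845 between them. By limma 0 of 6 passed the Benjamini-Hochberg threshold and 0 had an unadjusted p under 0.05. Apart from AT2G14900, at 10.2 ± 0.18 in the mutant and 10.3 ± 0.15 in Col er-2 (SD, n = 3 each), all lay under the 35th percentile of probe sets. The table used here does not give these loci a family name, and they were listed from general knowledge.

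AT1G62500 was compared with other loci listed, again from general knowledge, as encoding secreted proteins of the lipid-transfer type to which its own product belongs. Of 24 loci 11 could be named, and AT1G62500 stood at 0.57 while the other 10 ran from -0.36 to 0.03. Without AT1G62500 the median difference was -0.09, with 3 loci above 0 and 7 under 0, and limma called 0 of 10 after Benjamini-Hochberg adjustment. AT4G22460 differed by -0.36 (unadjusted p = 0.0435, adjusted p = 0.652 with limma), AT2G45180 by -0.35 and AT4G22470 by -0.17. For AT4G22460 and AT4G22470 the mutant arrays lay below all Col er-2 arrays, which held for 5.57% of all probe sets. Both had signals under the 35th percentile of probe sets, as had 9 of the 11 loci. AT2G45180, with a high signal, averaged 9.71 ± 0.37 in the mutant and 10.07 ± 0.20 in Col er-2 (SD, n = 3 each).

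**Figure D3:**
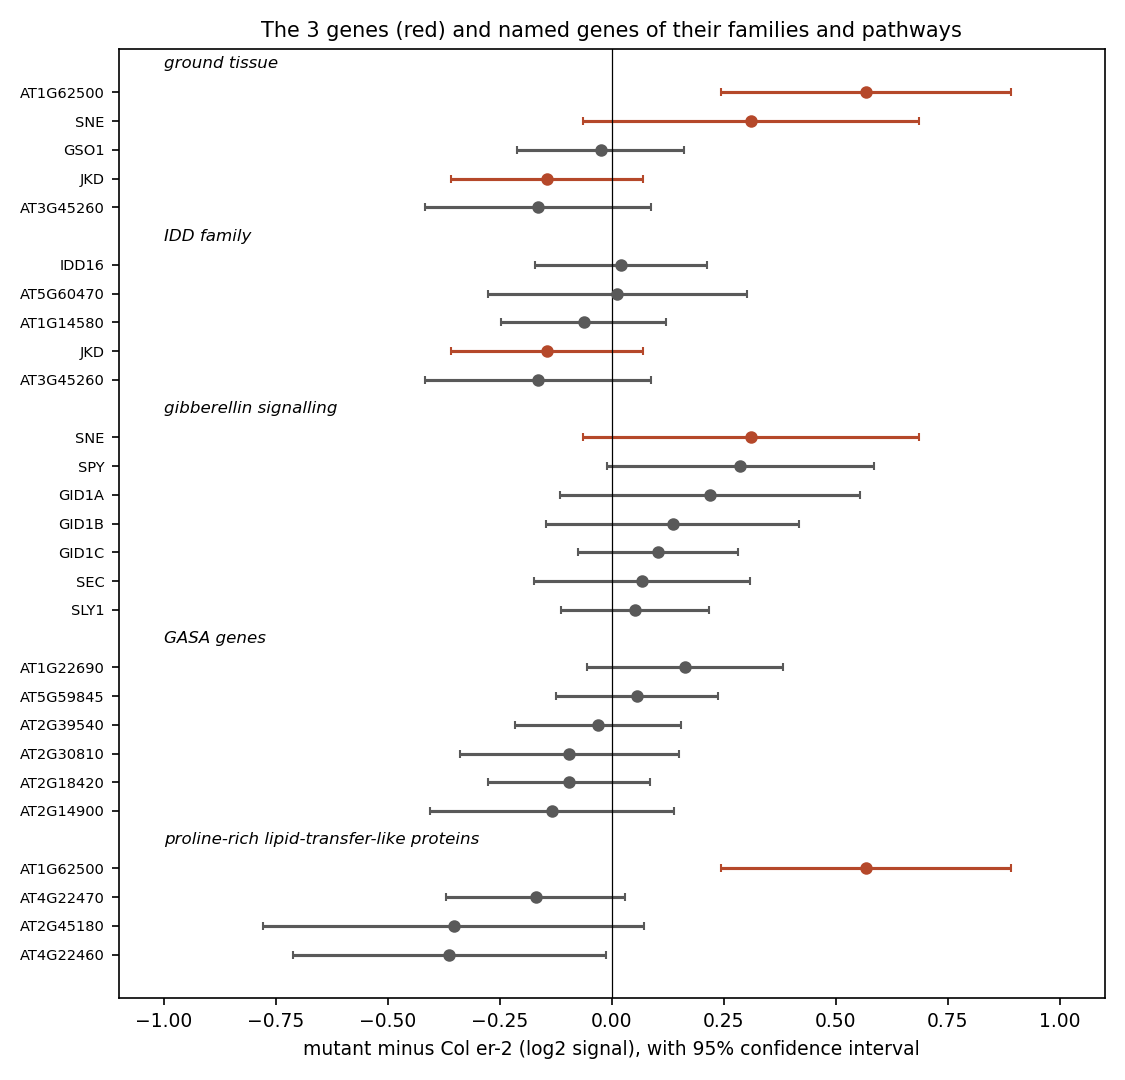
Difference in log2 signal, mutant minus Col er-2 (horizontal axis), with its 95% confidence interval from limma, for JKD, SNE and AT1G62500 (red) and for named genes of 5 lists (grey). All named genes are drawn except for the lipid-transfer-like list, of which the 4 loci with the smallest p are drawn. The intervals of AT1G62500 and AT4G22460 exclude 0, and all 7 gibberellin signalling genes lie above 0.

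The genes next to the 3 loci on the chromosome had differences nearer to 0 than the 3 genes themselves. Among the 5 protein-coding genes on either side of AT1G62500 in the TAIR10.1 gene order, 6 could be named, and they ran from -0.19 to 0.14. Its direct neighbour AT1G62510, which is on the lipid-transfer-like list too, was the lowest of them. Around SNE 4 genes could be named, from -0.09 to 0.10, and around JKD 5, from -0.06 to 0.12. The highest of these 5, AT5G03120, was close in size to JKD at -0.14. Its mutant arrays lay above all Col er-2 arrays, which held for 7.55% of all probe sets. Of these 15 neighbours limma called 0 after Benjamini-Hochberg adjustment, and 0 had an unadjusted p under 0.05.

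The genes whose signals followed each gene most closely over the 6 arrays were taken by Pearson's r, among named genes with an SD of at least 0.5 times that of the gene. For AT1G62500 these were AT1G26680 (r = 0.990), AT1G75340 (0.974), scpl25 (0.974), AT5G62550 (0.972) and AT5G25475 (0.971). AT1G26680 came nearest in size as well, with 5.53, 5.72 and 5.82 in the mutant and 5.07, 5.30 and 4.97 in Col er-2, a difference of 0.58 (limma Benjamini-Hochberg adjusted p = 0.259). That all 5 are higher in the mutant follows from how they were chosen. For SNE they were AT3G48425 (r = 0.982), AT1G42440 (0.981), AT5G26180 (0.980), AT4G28440 (0.973) and AT3G15220 (0.972). For JKD they were AT3G15290 (r = 0.988), AT3G56410 (0.986), AT4G03840 (0.982), AT5G59770 (0.975) and AT4G09490 (0.973). The points are the same 6 arrays for every gene, and high values are common over so few. An r of 0.9 or more was found for 52 of 2934 genes with AT1G62500, for 124 of 5407 with SNE and for 51 of 12309 with JKD. None of the 3 genes was among the 5 most like another of them.

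**Figure D4:**
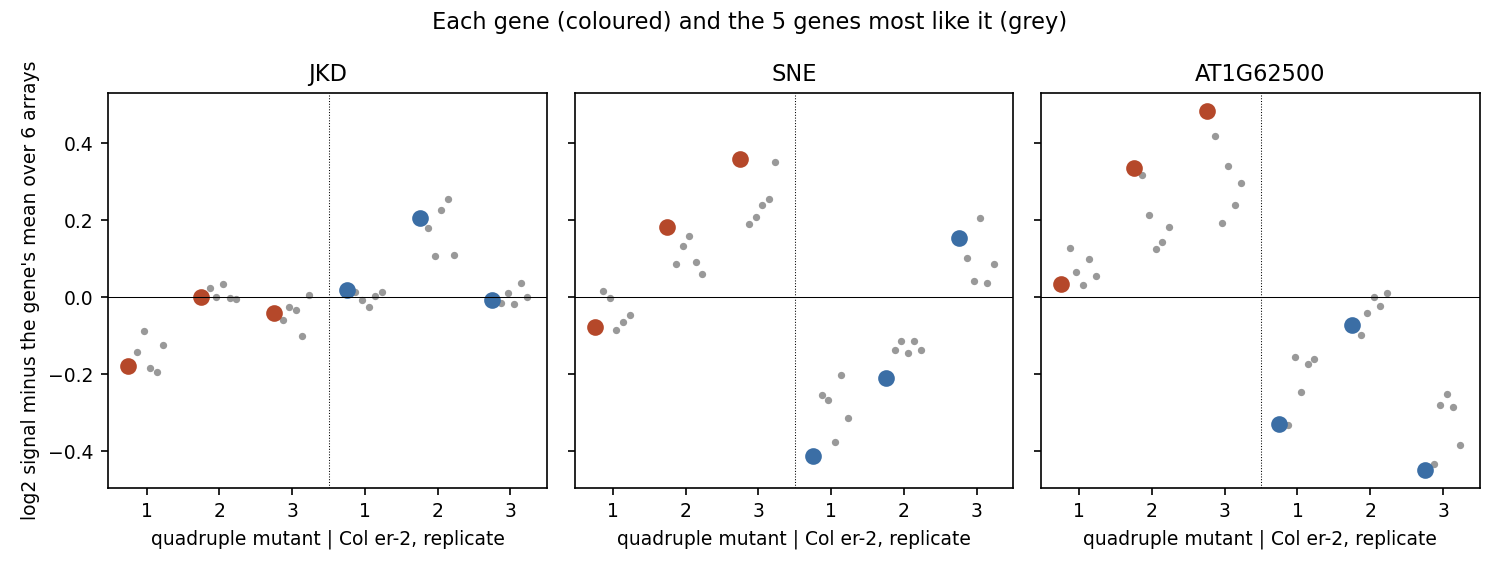
Log2 signal on each array minus the gene's mean over the 6 arrays (vertical axis), for the mutant arrays left of the dotted line and the Col er-2 arrays right of it. Large points are JKD, SNE and AT1G62500, and grey points the 5 genes most like each. For AT1G62500 the large points lie above 0 on all mutant arrays and below 0 on all Col er-2 arrays. SNE lies below 0 on replicate 1 of both genotypes.

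Markers of the other tissues in the tip were read beside these values. The root cap list, with 2 of 7 genes named (AT1G65570 and CR4), had a mean signal of 7.15 to 7.37 on the mutant arrays and 6.75 to 7.11 on the Col er-2 arrays. For the stem cell niche 3 of 7 listed genes were named (BBM, AGL42 and CLE40), and their mean signal was 4.89 to 5.04 in the mutant and 4.69 to 4.88 in Col er-2. On both lists the mutant means were above all Col er-2 means, for the niche only by 4.89 against 4.88. Every mutant array also had a higher median over all probe sets than every Col er-2 array. Means of so few genes were not recomputed after median centring, and no share over other sets of genes was computed. No result is read from them. Singly, only BBM of the 5 genes on these lists had genotypes that did not overlap, against 7.55% of all probe sets with the mutant higher. It differed by 0.42 (unadjusted p = 0.00919, limma Benjamini-Hochberg adjusted p = 0.463), while AGL42 differed by 0.06 and CLE40 by 0.04. AT1G65570 differed by 0.43 and CR4 by 0.08, and a single array moved AT1G65570 to 0.18 without Col er-2 replicate 2 and to 0.27 without mutant replicate 3. The stele list, with 5 of 13 named (PHV, LHW, OPS, IRX15 and GUT2, known as IRX10), had 5.40 to 5.70 in the mutant and 5.53 to 5.65 in Col er-2. It includes PHV, a mutated gene, at -0.92, and the other 4 differed by 0.13 to 0.22, none past the threshold and 0 with an unadjusted p under 0.05. Without PHV the mean was 5.59 to 5.90 in the mutant and 5.50 to 5.62 in Col er-2. The epidermis and root hair list, with 2 of 9 named (EXPA7 and EXPA18), had 4.41 to 4.47 in the mutant and 4.37 to 4.71 in Col er-2. For the stele, with and without PHV, and for the epidermis list these means overlapped between the genotypes. Singly, EXPA7 differed by -0.17 (limma Benjamini-Hochberg adjusted p = 0.716), with every mutant array below every Col er-2 array. That held for 5.57% of all probe sets. EXPA18 differed by -0.11 and overlapped, and both genes had signals under the 35th percentile of probe sets. No marker could be called absent, since there are no detection calls. The part of tissue makeup in the difference of AT1G62500 was not tested.

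The direction of each of the 3 differences was the same under 14 other settings of the comparison, and 0 of 3 genes passed the Benjamini-Hochberg threshold in any of them. Much of that agreement in direction was fixed in advance. The replicate block, a filter on dim probe sets, the eBayes options and the equal-variance test leave the difference itself unchanged. For AT1G62500, whose arrays did not overlap, leaving out 1 array could not turn the direction either. The range was widest for SNE, from 0.18 without Col er-2 replicate 1 to 0.47 without Col er-2 replicate 3. AT1G62500 ran from 0.47 without mutant replicate 3 to 0.69 without mutant replicate 1.

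**Figure D5:**
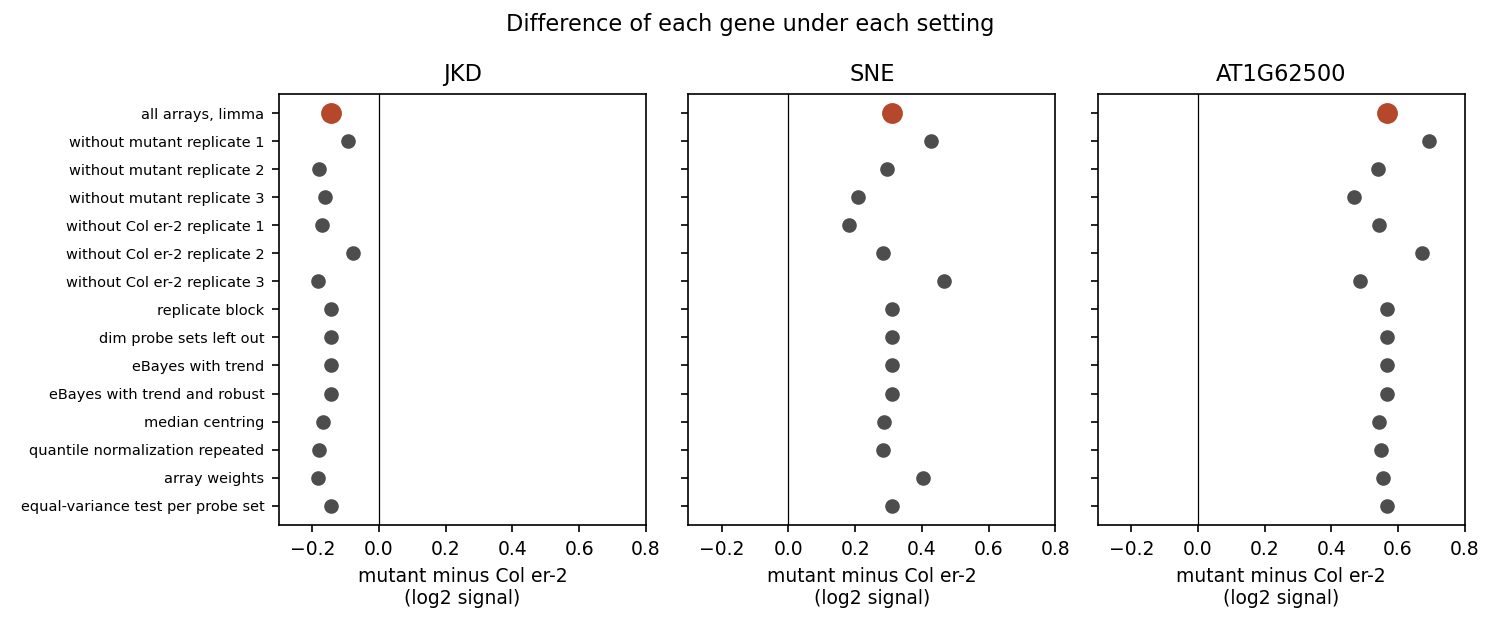
Difference in log2 signal, mutant minus Col er-2 (horizontal axis), of JKD, SNE and AT1G62500 with all arrays and limma (large red point) and under each of 14 other settings (grey points), named at the left. JKD stays between -0.18 and -0.08, SNE between 0.18 and 0.47 and AT1G62500 between 0.47 and 0.69, and no point crosses 0. Settings that change only the test, the block or the probe sets entered have the same difference as the large red point by construction.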

How the data were processed

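The deposited table holds 1 log2 signal per probe set and array, 22810 probe sets on 6 arrays. Per the submitters' processing notes, the tools were RMA, limma and Affymetrix Expression Console, with no role stated. The values are read as RMA log2 signals from those names and their range. Versions and build are not given in the sources used here, so no coordinates are printed. After 64 control probe sets were left out, the remaining 22746 entered the comparison, always mutant minus Col er-2, in limma 3.58.1 under R 4.3.3 (lmFit, eBayes, Benjamini-Hochberg over all of them, threshold 0.05). Groups and replicate numbers came from the sample titles. The design text calls the replicates biological, and no batch is given. Precision is limited by the number of arrays. Differences had a median standard error of 0.10.

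Names came from a probe table matched by gene ID to TAIR10.1. Of the probe sets, 13513 named 1 gene, 503 several, and 8730 were not listed and are unnamed here. The probe set with the highest mean stood for a gene. The 10 lists held 133 loci, 42 of them named. The 3 genes and the lists were chosen with earlier results of these data known. The text names all members of a list with up to 8 named, otherwise the 4 with the smallest p, and the 5 genes most like each of the 3. The neighbouring genes were chosen later. The fit was tested on simulated data. As alternatives, arrays were left out in turn, and the others were the replicate block, a dim filter, eBayes with trend and robust options, median centring, repeated quantile normalization, array weights and an equal-variance test.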

Additional observations from a re-analysis of the deposited data

How the results depend on the processing

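Under 14 alternatives JKD kept a difference below 0, and SNE and AT1G62500 kept one above 0, and none of the 3 passed the threshold in any of them. The replicate block, dim filter, trend options and equal-variance test leave the difference itself unchanged, so they could not change its direction. Leaving out 1 array could not change that of AT1G62500, since its arrays did not overlap. With each array left out in turn, JKD ran from -0.18 to -0.08, SNE from 0.18 to 0.47 and AT1G62500 from 0.47 to 0.69. Over all alternatives the limma adjusted p ran from 0.546 to 0.999 for JKD, from 0.321 to 0.999 for SNE and from 0.158 to 0.987 for AT1G62500. The lowest of AT1G62500 and SNE, 0.158 and 0.321, came with the replicate block, which left their differences at 0.57 and 0.31 and that of JKD at -0.14. The replicate numbers are not shown to pair the arrays. Deviations from the group means correlated at 0.504 for replicate 1, 0.065 for replicate 2 and 0.176 for replicate 3, while the best match of mutant replicate 2 was Col er-2 replicate 3 (0.317). The differences of changes between genes kept their direction with each array left out, at 0.63 to 0.78 for AT1G62500 minus JKD, 0.02 to 0.39 for AT1G62500 minus SNE and 0.35 to 0.65 for SNE minus JKD. For AT1G62500 minus JKD that direction was fixed, since the arrays did not overlap. Another probe set could not be tried, since each of the 3 genes had 1. Without the SD floor 3, 0 and 1 of the 5 genes most like JKD, SNE and AT1G62500 were shared, and on deviations from the group means 1, 0 and 1. These alternatives for gene pairs and likeness were added after the data were seen. Against 6 probe sets called with all arrays, the replicate block called 109, trend 14, trend with robust 27, repeated quantile normalization 11, array weights 22 and the equal-variance test 1. An adjusted p under 0.01 called 2 and under 0.1 called 19, by construction. Leaving out 1 array called 1 to 8. Genes that turned sign, none past the threshold, ran with 1 array left out from -0.060 to 0.016 (GSO1), -0.031 to 0.074 (IDD16), -0.082 to 0.113 (AT5G60470), -0.035 to 0.142 (SEC), -0.183 to 0.0010 (AT2G30810), -0.073 to 0.0084 (AT2G39540), -0.267 to 0.011 (EXPA18) and -0.016 to 0.095 (CLE40). With median centring, which lowered all differences by 0.025, IDD16 was at -0.0047 and AT5G60470 at -0.013, and with array weights SEC was at -0.0067. The cause of the other moves was not tested. All 7 gibberellin signalling genes stayed above 0 in 11 of 13 settings that keep them, and SEC turned in the others. Among the 13, the replicate block, trend options and equal-variance test could not turn any gene. PHV passed with the replicate block, with trend and robust, with repeated quantile normalization and with array weights, and its adjusted p ran from 0.0102 to 0.528. Low signal limits the dim genes named above, since RMA compresses their differences.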
